A study of Mus musculus with 36 samples.

Results

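The effect of the TRAMP transgene on prostate miRNAs was examined at 10 weeks of age in mice with an unaltered Elac2 gene, by setting 3 WT-TRAMP libraries against 3 WT libraries. These 6 small RNA libraries were chosen by their genotype and age labels alone, from a series of 36 libraries in 12 groups of 3. The other groups include WT and WT-TRAMP mice at 30 weeks. The rest carry a prostate-specific Elac2 knockout (KO) or an A537T change, with and without TRAMP, at 10 and 30 weeks. The mice were males of the strain that the study spells C56NL/6N, matched for age and litter. The tissue was the ventral and lateral prostate lobes, dissected under a microscope and frozen. WT mice were ELAC2+/+ with no transgene. WT-TRAMP mice were ELAC2+/+ / TRAMP +/-, so both groups had intact Elac2 and differed by a single heterozygous transgene. TRAMP places the SV40 large-T and small-t antigens under the probasin promoter, which is active in the prostatic epithelium, so stroma, muscle, vessels and blood cells of the lobes were measured together with the cells that the promoter targets. The labels number the libraries of a group as replicates, and p-values measure the spread between these libraries. T antigen messages were not among the measured RNAs, so nothing here checks the genotype labels directly.

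A miRNA is a short RNA that pairs with messenger RNAs through its seed, bases 2 to 8, and lowers their output. Large-T antigen binds the retinoblastoma protein, which frees E2F transcription factors to switch on cell division genes, and it binds p53, the transcription factor that switches on the miR-34 genes. Several miRNA clusters lie inside genes of the division machinery and are copied together with them: miR-106b, miR-93 and miR-25 lie in Mcm7, a subunit of the helicase that opens DNA for replication, and miR-15b and miR-16-2 lie in Smc4, a subunit of the condensin that compacts chromosomes. miR-17, miR-18a, miR-19a, miR-20a, miR-19b-1 and miR-92a-1 are cut from the RNA of Mir17hg, a target of MYC and E2F, and miR-449a lies in Cdc20b and is known as an E2F target with the same seed as miR-34a.

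The mature sequences on which the comparison turns are shown by seed, because several of the seeds were shared by miRNAs cut from different genes. They are RefSeq sequences on GRCm38.p6, 5′ to 3′, with the seed in capitals, and 436 of the 506 miRNAs tested were matched to one. The first set holds the seed AAAGUGC of the miR-17 and miR-106b clusters.
miR-17-5p: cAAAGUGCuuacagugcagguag
miR-20a-5p: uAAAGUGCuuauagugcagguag
miR-93-5p: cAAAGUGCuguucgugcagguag
miR-106b-5p: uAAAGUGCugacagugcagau
A second seed of these clusters is shared with miR-32, which comes from an unlinked gene.
miR-25-3p: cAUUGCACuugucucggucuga
miR-92a-3p: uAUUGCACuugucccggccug
miR-32-5p: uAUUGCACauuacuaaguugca
The miR-19 pair differs at a single base outside the seed.
miR-19a-3p: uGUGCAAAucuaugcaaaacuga
miR-19b-3p: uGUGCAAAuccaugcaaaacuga
The seed of the miR-15 and miR-16 family is carried by miRNAs of the Smc4 and Dleu2 genes and by the linked pair miR-195a and miR-497a.
miR-15b-5p: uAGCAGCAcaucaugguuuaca
miR-15a-5p: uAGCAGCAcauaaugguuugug
miR-16-5p: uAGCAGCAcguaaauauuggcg
miR-195a-5p: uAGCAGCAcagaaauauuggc
miR-497a-5p: cAGCAGCAcacugugguuugua
miR-34a-5p and miR-449a-5p share a seed and went in opposite directions.
miR-34a-5p: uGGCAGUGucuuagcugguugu
miR-449a-5p: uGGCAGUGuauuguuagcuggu
The miR-3473 pair gave the largest rises among miRNAs with a mean level of at least 10.
miR-3473b: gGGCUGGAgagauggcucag
miR-3473e: gGGCUGGAgagauggcucgua
The last set marks cells other than epithelium, skeletal muscle by miR-206, miR-133b and miR-499 and endothelium by miR-126a.
miR-206-3p: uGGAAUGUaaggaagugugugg
miR-133b-3p: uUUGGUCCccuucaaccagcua
miR-499-5p: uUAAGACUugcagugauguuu
miR-126a-3p: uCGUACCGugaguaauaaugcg

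The WT-TRAMP libraries held 4544257, 8224957 and 10491199 miRNA reads and the WT libraries 15479952 to 17625145, so the TRAMP group was shallower throughout. A level is given as reads per 1000000 miRNA reads of the library, rescaled so that the median ratio between libraries was 1 over the 629 miRNAs present in all 6. A single read stood for a level of 0.0945 to 0.199 in the WT-TRAMP libraries and 0.0429 to 0.0737 in the WT libraries. Between 64.4% and 72.1% of all reads in each library belonged to its 10 leading miRNAs. Across miRNAs, Pearson's r of the log2 levels was 0.989 to 0.993 within WT-TRAMP, 0.958 to 0.985 within WT and 0.919 to 0.953 between the groups, a description over miRNAs, which are not independent.

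Of the 506 miRNAs with a mean level of at least 1, 70 rose in WT-TRAMP (13.8%) and 51 fell (10.1%), 121 in all (23.9%), at a limma adjusted p under 0.05 on log2(level + 1). The rises included miRNAs of cell division gene clusters, of the miR-15 and let-7 families and of leukocytes and epithelium. The falls were led by miRNAs of skeletal muscle and took in those of red cells and endothelium, miR-378, miR-10b and miR-34a. The groups did not overlap for 230 miRNAs (45.5%), 116 of them higher and 114 lower in WT-TRAMP. The median difference over all 506 was -0.06. Fold changes below come from the log2(level + 1) scale and are smaller than the ratio of the levels where a miRNA is scarce. With the libraries thinned to 4544257 reads each, 66 rose and 49 fell. The split of rises and falls moved with scaling, to 62 and 63 with trimmed-mean (TMM) scaling.

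**Figure D1:**
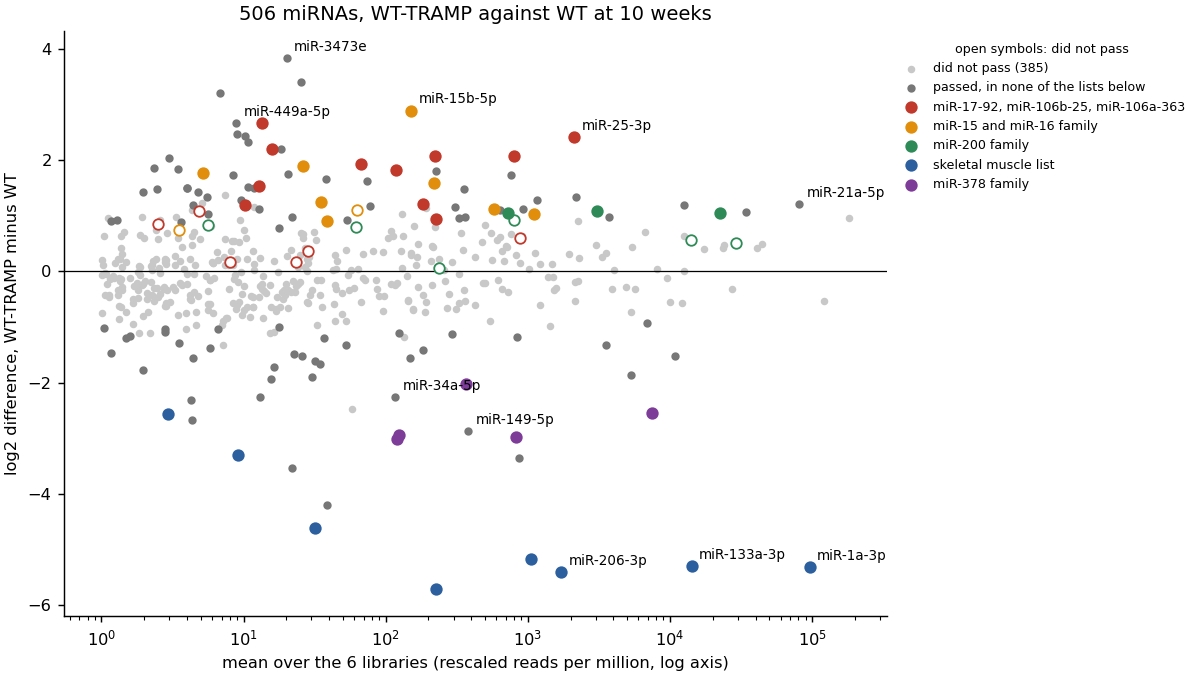
Each point is a miRNA, placed by its mean level over the 6 libraries (horizontal, level as rescaled reads, log axis) and its WT-TRAMP minus WT difference (vertical, log2). Dark grey and filled coloured points passed the limma test and light grey or open points did not. The muscle list, in blue, lies lowest, and miR-3473e lies highest.

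All 6 arms of the miR-106b-25 cluster in Mcm7 rose. miR-25-3p, whose targets include cell cycle inhibitors and the pro-death protein Bim, is cut from the minus strand of chromosome 5 at chr5:138165332-138165353 in GRCm38.p6. Its level was 3444, 3998 and 3251 in the WT-TRAMP libraries and 474, 663 and 934 in the WT libraries. The lowest WT-TRAMP library was above the highest WT library. The difference was 2.42 ± 0.28 on the log2 scale (SE, n = 3 and 3), a 5.33-fold rise at a limma adjusted p of 0.000917. miR-93-5p, of the miR-17 seed, stood at 1478, 1310 and 1108 against 281, 356 and 289. These groups were also apart, with a 4.19-fold rise (2.07 ± 0.22, limma adjusted p = 0.000787). The third guide strand, miR-106b-5p, was measured at 207, 176 and 157 against 77.1, 69.7 and 23.2. WT library 30 was the low one, and the rise of 1.81 ± 0.43 had a limma adjusted p of 0.0158. The call on miR-106b-5p was lost with scaling to the total alone (adjusted p = 0.055) and without any 1 of the WT-TRAMP libraries. The partner arms rose by 2.66 (miR-25-5p), 2.07 (miR-106b-3p) and 1.54 (miR-93-3p) on the log2 scale, with no overlap between the groups for any of them. Arms of a cluster come from a single RNA and are not independent of each other.

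A Mcm7 promoter window is shown because all the arms of the gene's cluster moved together. RefSeq places this window of 250 bases before to 50 after the start at chr5:138171834-138172133 on the minus strand of GRCm38.p6, and capitals mark matches to E2F-type motifs: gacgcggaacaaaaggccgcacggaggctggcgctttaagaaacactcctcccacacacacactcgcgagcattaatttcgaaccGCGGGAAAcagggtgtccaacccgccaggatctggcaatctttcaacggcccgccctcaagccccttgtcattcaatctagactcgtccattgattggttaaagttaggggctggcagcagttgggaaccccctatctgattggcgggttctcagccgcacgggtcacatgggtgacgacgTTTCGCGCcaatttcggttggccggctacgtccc
The motifs searched, on both strands, were TTTCCCGC, TTTGGCGC, TTTCGCGC and TTTGCCGC. GCGGGAAA is the first of these read on the other strand. Of 32851 promoter windows of this length, 744 (2.26%) held at least 1 of the 4 motifs. The second window that RefSeq gives for Mcm7, at chr5:138171217-138171516, held none of them, nor did the windows of Cdc20b and Mir17hg. All tested arms from the Smc4 locus rose too, but Smc4 had no window among those searched, so its promoter was not examined. The Mir17hg window, at chr14:115044140-115044439, begins past the position of miR-17-5p and so does not lie before the cluster. A match is a description of letters and no binding was measured.

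miRNAs of the miR-17-92 cluster on chromosome 14 rose too, by smaller steps. miR-19a-3p had levels of 29.6, 32.3 and 18.4 in WT-TRAMP and 4.9, 5.34 and 4.5 in WT. The 3 WT libraries were nearly level and all WT-TRAMP libraries were above them, a rise of 2.20 ± 0.29 (limma adjusted p = 0.00137). miR-19b-3p followed with 115, 123 and 81.8 against 39.4, 27.2 and 17.9. It rose 3.81-fold, also without overlap (1.93 ± 0.33, limma adjusted p = 0.00394). miR-17-5p, which founds the seed family and lies at chr14:115043684-115043706, stood at 307, 262 and 204 against 115, 123 and 90.9. Its rise was 1.22 ± 0.25 and that of miR-20a-5p 0.94 ± 0.23 (limma adjusted p = 0.00738 and 0.018), the latter lost without library 1 or 2. The most abundant arm, miR-92a-3p, had levels of 1223, 1065 and 910 against 603, 671 and 849. The groups did not overlap, but the difference of 0.60 did not pass (limma adjusted p = 0.0994). miR-19b and miR-92a are also encoded on the X chromosome, and reads of the copies cannot be told apart.

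Of the 19 miRNAs listed for miR-17-92, miR-106b-25 and the related X-linked miR-106a-363 cluster, 17 were tested, 11 rose and none fell. Their median difference was 1.22, beside -0.06 over all miRNAs tested, of which 13.8% rose and 10.1% fell. The 6 that did not pass include all 3 tested members of miR-106a-363, although miR-106a-5p and miR-20b-5p carry the same seed as miR-17-5p. Over the alternative settings, 8 to 14 of the listed miRNAs rose and none fell.

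**Figure D2:**
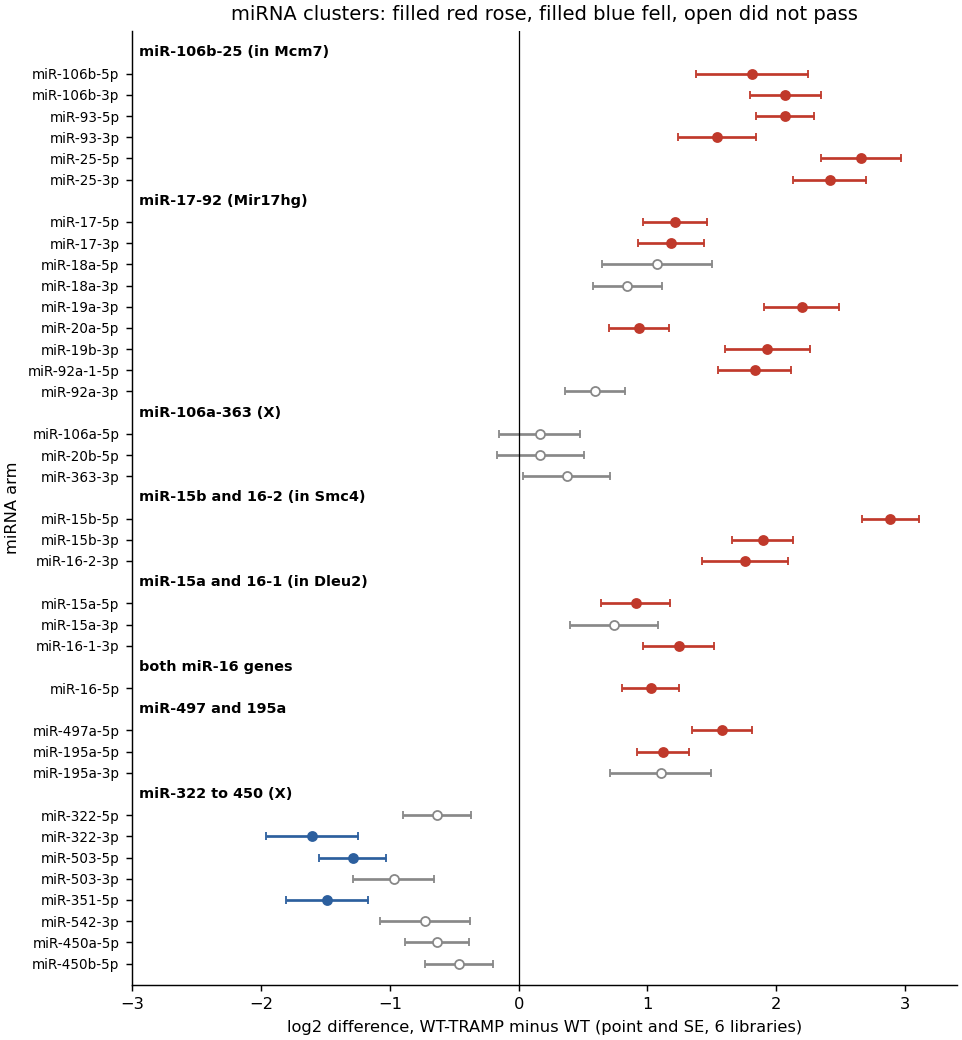
Points give the WT-TRAMP minus WT difference on the log2 scale (horizontal) of each tested arm of the clusters, with bars for the standard error of the limma fit over 6 libraries. Filled red points rose, filled blue points fell and open points did not pass: all 6 arms of miR-106b-25 are filled, and the 3 of miR-106a-363 are open.

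The miR-15 and miR-16 family, repressors of cyclins and of Bcl2, rose as a group. miR-15b-5p lies in an intron of Smc4 at chr3:69009775-69009796, on the plus strand. Its levels were 270, 271 and 258 in WT-TRAMP and 34.8, 30.5 and 41.1 in WT. Both groups were tight and lay far apart, and the 7.38-fold rise (2.88 ± 0.22, limma adjusted p = 0.000122) was the largest among miRNAs with a mean level of at least 100. The partner arm, miR-15b-3p, stood at 45.5, 44.2 and 36.8 against 10.5, 10.6 and 10.6. It rose by 1.89 ± 0.24 (limma adjusted p = 0.00112). All 4 tested arms from the Smc4 locus rose, by 1.02 to 2.88.

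miR-16-5p is made from both the Smc4 locus and Dleu2 and its copies cannot be separated. It was at 1649, 1542 and 1264 against 765, 783 and 636, without overlap, a 2.03-fold rise (limma adjusted p = 0.00932) that did not pass without library 1 or 2. miR-195a-5p and miR-497a-5p, a pair from an unlinked locus, were at 777, 788 and 795 against 326, 383 and 376 and at 326, 356 and 293 against 111, 128 and 88.4. Both rose without overlap, 2.18-fold and 2.98-fold (limma adjusted p = 0.00462 and 0.00209). miR-15a-5p, from Dleu2, rose least (0.91, limma adjusted p = 0.0402), and its call was lost with total scaling, TMM, no level filter and edgeR and without library 1, 2, 3 or 29. Of the 10 family members tested 8 rose and none fell, with a median of 1.18, beside 13.8% rising over all miRNAs tested. The exceptions were the partner arms miR-15a-3p and miR-195a-3p. miR-322-5p, an X-linked miRNA of the same seed that the list leaves out, was at 13.5, 11.8 and 10.3 against 22.8, 19.5 and 15.1. It was lower in each WT-TRAMP library than in any WT library, with a difference of -0.63 that did not pass (limma adjusted p = 0.123).

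miR-34a-5p and miR-449a-5p carry the same seed and moved apart. miR-34a-5p, a p53 target that represses Cdk6, Met and Bcl2, lies at chr4:150068473-150068494. Its level was 47.5, 45.7 and 23.9 in WT-TRAMP and 223, 252 and 108 in WT. No WT-TRAMP library reached the lowest WT library, and the fall was 4.78-fold (-2.26 ± 0.40, limma adjusted p = 0.00455). miR-449a-5p, from an intron of Cdc20b at chr13:113037549-113037570, was at 23.3, 15.1 and 10.1 against 1.76, 2.15 and 0.959. These levels come from 117, 114 and 107 reads against 41, 31 and 13. Each WT-TRAMP library was above every WT library, a 6.34-fold rise (2.66 ± 0.36, limma adjusted p = 0.00138). Both calls held in every alternative that tested them, 17 for miR-34a-5p and 16 for miR-449a-5p, which is below the level filter of 10. miR-34b and miR-34c, listed with them, did not pass: miR-34b-3p stood at 3.78, 3.31 and 4.16 against 5.58, 4.78 and 5.09, and miR-34c-5p at 42.3, 33.1 and 46.5 against 85.9, 53.5 and 32.3. The groups overlapped for miR-34c-5p and not for miR-34b-3p.

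**Figure D3:**
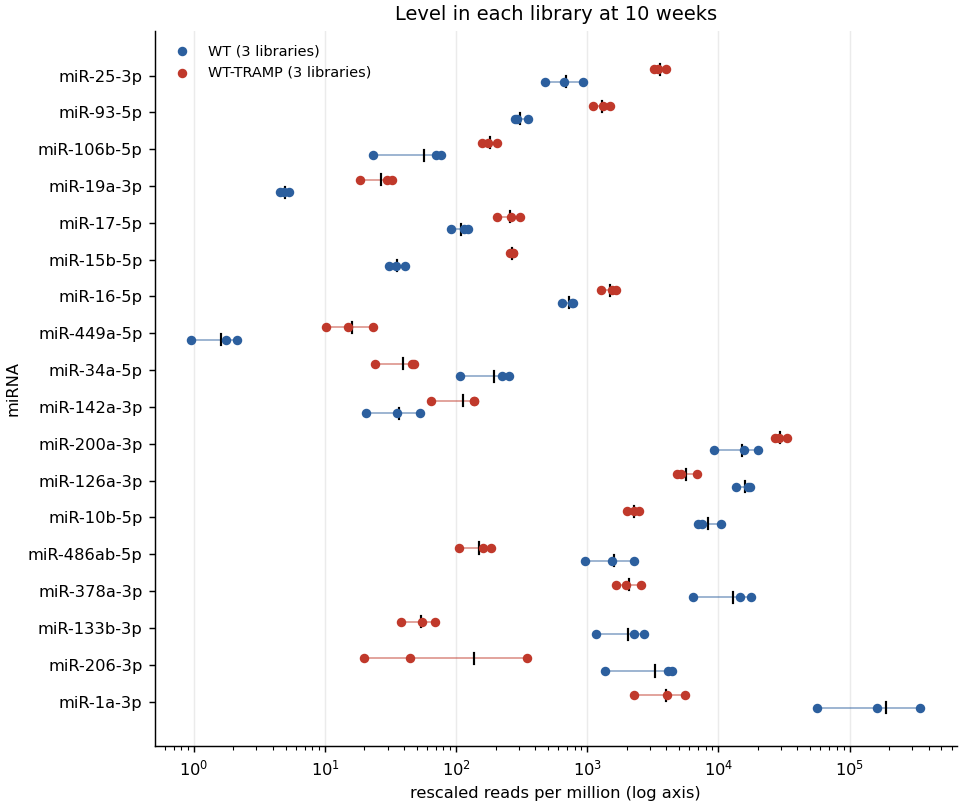
Each row gives the levels of a miRNA (rescaled reads on the scale of the report, log axis), with a point for each of 3 WT libraries (blue) and 3 WT-TRAMP libraries (red), a line over their range and a tick at the mean. The groups do not overlap in any of the rows, whether the miRNA rose, as miR-15b-5p and miR-449a-5p did, or fell, as miR-34a-5p and miR-1a-3p did.

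The 2 largest rises at a mean level of at least 10 belonged to miR-3473e and miR-3473b. miR-3473e was at 57.8, 40 and 18.3 in WT-TRAMP and 1.93, 1.8 and 0.959 in WT. The WT-TRAMP libraries varied among themselves but were all far above WT, a 14.3-fold rise (3.83 ± 0.42, limma adjusted p = 0.000787). miR-3473b was at 69, 48.7 and 23.7 against 3.14, 4.44 and 2.21. It rose 10.6-fold, and WT-TRAMP libraries 1, 2 and 3 fell in the same order. The assignment of its reads to a miRNA gene is uncertain. The 20-base sequence of miR-3473b printed above occurs in annotated transcripts of 344 of the 55450 genes searched, whereas the other 103 called miRNAs with a sequence were found in 0 to 5. It resembles the start of B2, a repeat copied by RNA polymerase III. The sequence of miR-3473e was found in 0 genes, but it differs from that of miR-3473b only in its last bases. A search for the whole sequence does not cover reads that end before those bases, and the same doubt holds for miR-3473e. The origin of the reads of either miRNA was not tested. miR-2137, at 14.5, 21.1 and 4.54 against 0.301, 0.277 and 0.442, and miR-5114, at 21.1, 25 and 8.13 against 1.2, 3.88 and 2.06, varied likewise between WT-TRAMP libraries. They rose 9.25-fold and 5.42-fold. miR-677-5p rose 5.55-fold with less spread, from 1.67, 2.36 and 1.99 in WT to 15.9, 19.2 and 12.5.

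Among the most abundant miRNAs, miR-21a-5p, a repressor of Pdcd4 from the 3′ end of Vmp1, was at 114224, 121363 and 97887 in WT-TRAMP and 29589, 65275 and 56823 in WT. The groups did not overlap and WT library 28 was the low one. The rise of 1.21 ± 0.34 (limma adjusted p = 0.0301) was lost with no level filter and without any 1 of the WT-TRAMP libraries. Its partner arm miR-21a-3p rose by 1.52 and kept the call in each alternative. miR-148a-3p, the most abundant by the mean over the 6 libraries, was at 168357, 262239 and 273553 against 62060, 147324 and 178734. Here the groups overlapped and the difference of 0.96 did not pass (limma adjusted p = 0.138).

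The let-7 family, repressors of Ras, Myc and Hmga2, moved in part. let-7b-5p was at 19610, 18840 and 13851 against 7234, 8972 and 6685, and rose 2.28-fold without overlap (limma adjusted p = 0.00838). let-7c-5p, at 50213, 52938 and 36349 against 16956, 23891 and 25934, rose by 1.07 (limma adjusted p = 0.0214), a call lost with no level filter and without libraries 1, 2 or 29. miR-98-5p, an X-linked member of the family in Huwe1, was at 1763, 1950 and 1214 against 637, 710 and 640. It rose 2.43-fold and the groups were apart. Of 10 let-7 members tested 3 rose and none fell, with a median of 0.55, and 2 to 5 rose over the alternative settings. With a background of 13.8% rising over all miRNAs tested, nothing particular to the family is read from that count. let-7f-5p, let-7g-5p and let-7i-5p had differences of 0.42 to 0.47 that did not pass. let-7k and the partner arms let-7b-3p and let-7f-2-3p, which are not on the list, rose by 1.43, 1.18 and 0.98, calls that were lost for both partner arms without any 1 of the WT-TRAMP libraries.

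Of 19 miRNAs listed for prostate cancer, 4 rose (both arms of miR-21a, miR-32-5p and miR-31-5p) and 2 fell (both arms of miR-708), with a median of 0.44. Over all miRNAs tested 13.8% rose and 10.1% fell, and over the alternative settings 2 to 6 of the list rose and 2 to 3 fell. miR-32-5p, from the Tmem245 gene, shares its seed with miR-25 and stood at 70.4, 59.1 and 46.6 against 18.4, 22.4 and 13.1. It rose 3.17-fold without overlap (limma adjusted p = 0.00428). miR-31-5p rose by 0.98 from 216, 282 and 232 to 467, 513 and 458, a call lost without library 2. miR-340-5p, which is in none of the lists, had levels of 1237, 1206 and 1047 against 240, 489 and 359. It rose 3.33-fold without overlap (limma adjusted p = 0.00337).

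Leukocyte and epithelial miRNAs took a larger share of the reads in WT-TRAMP. In bulk tissue, more cells of a type and more RNA per cell cannot be told apart. The 9 leukocyte miRNAs summed to 0.282% to 0.454% of the reads in WT-TRAMP and 0.104% to 0.253% in WT. The ranges did not overlap, and the exact two-sided permutation test gave p = 0.1, the smallest that 3 against 3 libraries allow. A single miRNA, miR-146a-5p, made up 70.6% to 81.8% of the list's reads, so the sum follows it. With the muscle reads taken out of the total the shares were 0.283% to 0.456% and 0.150% to 0.280%, nearly touching. Of 8 tested, 3 rose and none fell, with a median of 0.43, beside 13.8% rising and 10.1% falling over all miRNAs tested. Over the alternative settings 2 to 3 rose, and 1 fell in 7 of them. miR-142a-5p, specific to blood cells, was at 409, 430 and 228 against 109, 98.2 and 87.1 and rose 3.48-fold (limma adjusted p = 0.00308). miR-146a-5p, induced by NF-kappaB, was at 3145, 4042 and 2252 against 1352, 1400 and 952 and rose 2.51-fold (limma adjusted p = 0.00932). Both were apart between the groups, with WT-TRAMP library 3 the lowest of its group. miR-150-5p of mature lymphocytes was at 63.4, 98.7 and 67.1 against 121, 90.9 and 97.1, with overlap and a difference of -0.44 that did not pass. miR-155-5p of activated lymphocytes was at 32.6, 36.4 and 21.9 against 48.2, 52.8 and 70.0, lower in every WT-TRAMP library, with a difference of -0.90 (limma adjusted p = 0.0502).

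The miR-200 family, which marks epithelium and represses Zeb1 and Zeb2, summed to 7.91% to 9.05% of reads in WT-TRAMP and 4.01% to 6.55% in WT (exact permutation p = 0.1). With the muscle reads taken out of the total the ranges overlapped, at 7.95% to 9.08% and 4.44% to 8.09%, and the difference fell from 3.34 to 1.96 percentage points (exact permutation p = 0.2). miR-200a-3p was at 26924, 33108 and 28814 against 9179, 20193 and 15727 and miR-429-3p at 4243, 4306 and 3788 against 1494, 2819 and 1724. Neither overlapped between the groups, and WT library 28 was the lowest in both. With miR-141-3p, 3 of 9 members rose, by 1.04 to 1.08, and none fell, beside 13.8% rising over all miRNAs tested. These calls depended on the setting: 0 to 6 members rose over the alternatives, 0 without any 1 of the WT-TRAMP libraries and 1 with TMM scaling. miR-200b-3p, the most abundant member, was at 31460, 36365 and 30059 against 11595, 31324 and 32935, and did not pass (0.51, limma adjusted p = 0.39).

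The shares of basal, stromal and neuroendocrine markers overlapped between the groups. The basal list summed to 0.217% to 0.426% and 0.192% to 0.402% (exact permutation p = 0.7). miR-205-5p, its main marker, was at 3010, 2111 and 1384 against 2491, 2378 and 2108. These overlapped, whereas miR-203-3p rose by 1.09 from 545, 379 and 306 to 829, 969 and 767 (limma adjusted p = 0.0166, lost with total scaling and without library 1, 2, 3 or 29). The 9 miRNAs of smooth muscle and fibroblasts summed to 9.36% to 11.6% against 7.34% to 30.8% (exact permutation p = 0.4), and none rose or fell, with a median of -0.44. WT library 30 decided that count, since 6 fell without it, and 2 fell when all 36 libraries shared a fit. The difference in share ran from -12.5 percentage points without library 30 to -0.778 without library 28. miR-143-3p, the smooth muscle miRNA that leads this list, was at 90840, 90036 and 101809 against 211476, 151732 and 79937. The WT libraries enclosed the WT-TRAMP range. The neuroendocrine and neural list took 0.588% to 0.753% against 0.288% to 0.807% (exact permutation p = 0.5). Of its members miR-7a-5p rose by 0.98 (limma adjusted p = 0.0152), a call lost without library 2 or 3. miR-375-3p of neuroendocrine cells was at 454, 1358 and 1216 against 1987, 2266 and 1311, with overlap. The liver list, a check for stray tissue, stayed below 0.001% of the reads in all 6 libraries.

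The largest falls were those of skeletal muscle miRNAs. miR-1a-3p, the most abundant muscle miRNA, was at 2262, 5607 and 4036 in WT-TRAMP and 56719, 162027 and 345337 in WT. Every WT library was far above every WT-TRAMP library, and the fall was 39.6-fold (-5.31 ± 0.62, limma adjusted p = 0.000917). miR-133a-3p was at 571, 802 and 601 against 14249, 35008 and 33976 (-5.30 ± 0.37, limma adjusted p = 8.78e-05). miR-206-3p, found in skeletal and not in cardiac muscle, was at 19.7, 346 and 44.3 against 1355, 4141 and 4397. WT-TRAMP library 2 was well above the other 2 of its group but below all WT libraries, and the difference was -5.40 ± 0.94 (limma adjusted p = 0.00428). miR-133b-3p lies beside miR-206 on chromosome 1, in the exon of a lincRNA, and was at 38.2, 69.5 and 55 against 1175, 2716 and 2272. miR-499-5p, from an intron of Myh7b, was counted by 3, 7 and 9 reads in WT-TRAMP and 308, 618 and 1813 in WT. miR-208b-3p had no read in WT-TRAMP and 40, 79 and 143 reads in WT, at least 13.9-fold lower against a floor of 3 reads per library. All 8 of the 11 listed muscle miRNAs that were tested fell, with a median of -5.24, beside 10.1% falling over all miRNAs tested.

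The muscle list summed to 0.32%, 0.478% and 0.628% of the reads in WT-TRAMP, in ascending order, and to 9.74%, 19.1% and 30.7% in WT libraries 28, 29 and 30 (exact permutation p = 0.1). Among the 12 groups, WT at 10 weeks had the highest of these shares. A537T mice at 10 weeks had 3.72% to 13.7%, KO mice at 10 weeks 0.736% to 6.51%, A537T-TRAMP mice at 10 weeks 0.218% to 0.904%, KO-TRAMP mice at 10 weeks 0.238% to 3.10% and every 30-week library under 1%. WT mice at 30 weeks, which carry no transgene, were among those under 1%. According to the study's methods, the seminal vesicles, bladder and urethra were taken off before the lobes were separated, with the connective or fat tissue around them. The amount of muscle in a dissected piece and the transgene cannot be told apart in these 6 libraries.

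**Figure D4:**
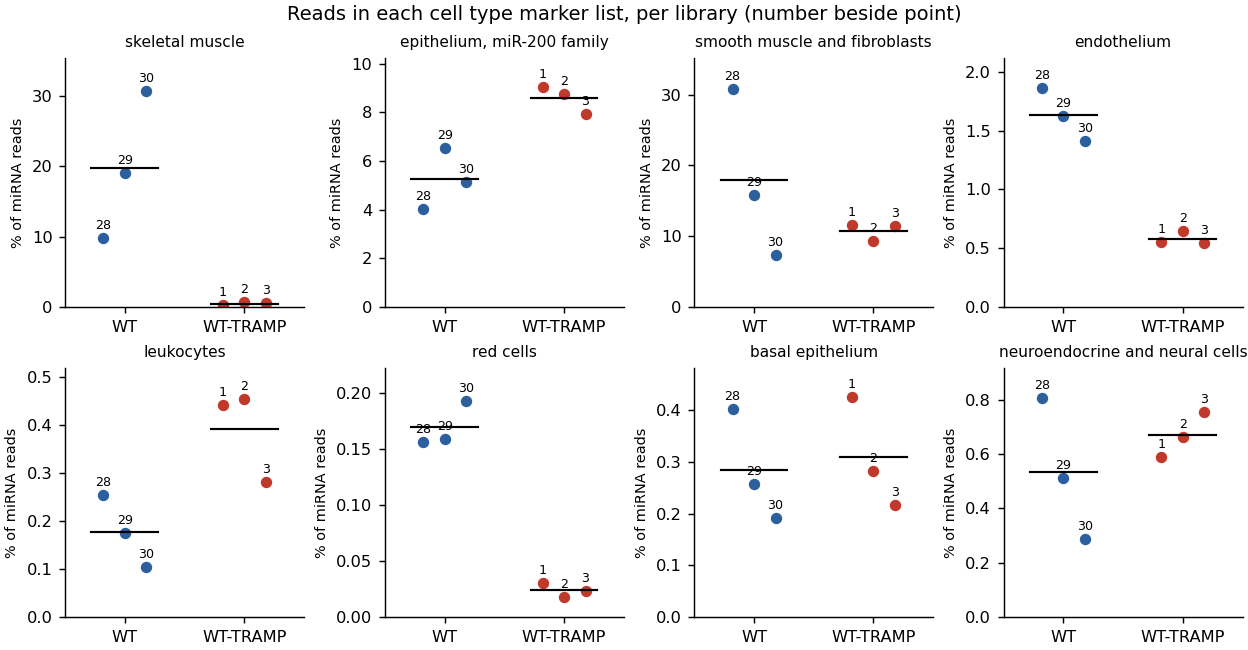
Points give the share of a library's miRNA reads (percent, linear axis from 0) in a cell type list per panel, for 3 WT (blue) and 3 WT-TRAMP libraries (red), with the library number beside each point and a line at the group mean. The muscle share is 9.74% to 30.7% in WT and 0.32% to 0.628% in WT-TRAMP, while the basal shares overlap.

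Inside the WT group, many other falls stood in the order of the muscle share. With muscle reads taken out, the smooth muscle and fibroblast share of libraries 28, 29 and 30 was 34.1%, 19.5% and 10.6%, the reverse of that order. The leukocyte, basal and neuroendocrine shares also descended. The red cell share ascended with miR-486-5p, which leads that list and is also made in muscle. miR-451a and miR-144-5p, of the same list, descended instead, and miR-144-3p was in no order. An order over 3 libraries therefore cannot be tied to muscle alone. The order library 28, below 29, below 30 was found for 29 of the 51 falls (56.9%), for 24 of the 43 falls outside the muscle list (55.8%), for 14 of the 70 rises (20%) and for 163 of all 506 miRNAs (32.2%). The 5 miR-378 members, led by miR-378a from the Ppargc1b gene and known from muscle and brown fat, all fell in the main fit and in every alternative, with a median of -2.94. Over all miRNAs tested 10.1% fell. These members are not independent, since both arms of miR-378a are among them and miR-378b, miR-378c and miR-378d are nearly the same in sequence. miR-378a-3p was at 1659, 2564 and 1971 against 6398, 14523 and 17620, ascending from WT library 28 to 30, and fell 5.80-fold. miR-486-5p, made in red cells and muscle, was at 185, 106 and 160 against 961, 1540 and 2287 and fell 10.2-fold. miR-149-5p was at 65.2, 73.2 and 85.3 against 259, 470 and 1336, and miR-22-3p at 2063, 2262 and 1683 against 3684, 5381 and 6308. They fell by 2.86 and 1.33 on the log2 scale, and both ascended in WT in the order of the muscle share. The part of the muscle in these falls was not tested.

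miRNAs of red cells and endothelium were also lower. The red cell list summed to 0.0175% to 0.0303% of reads against 0.156% to 0.193% (exact permutation p = 0.1). Of its 4 members 3 fell, beside 10.1% over all miRNAs tested. With total scaling or without library 3 only 1 fell, and 2 with no level filter, with thinning or without library 1, 28 or 29. One of the 3, miR-144-5p, rests on 5, 19 and 12 reads against 98, 67 and 46, and its call held in 9 of the 16 alternatives that tested it. Most of the list's reads were of miR-486-5p, so the sum follows it. The WT libraries held 22382, 22213 and 31018 of its reads beside 5016, 2234 and 1957 of miR-451a. miR-451a, the red cell miRNA cut by Ago2, was at 85.9, 82 and 67.4 against 215, 155 and 144. It fell 2.15-fold without overlap (limma adjusted p = 0.0114, lost with total scaling and without library 3), and its WT libraries ran against the order of the muscle share. The endothelial pair summed to 0.543% to 0.648% against 1.41% to 1.86% (exact permutation p = 0.1). miR-126a-3p, the endothelial miRNA of the Egfl7 gene, was at 4823, 6840 and 5224 against 13628, 16937 and 17512. It fell 2.86-fold without overlap (-1.52 ± 0.24, limma adjusted p = 0.00286). Its partner arm miR-126a-5p fell by 1.13, a call lost with total scaling (adjusted p = 0.062) and without library 1, 3 or 29.

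Falls outside these cell type lists included miR-10b, which lies in the Hoxd gene cluster. miR-10b-5p was at 1995, 2270 and 2496 against 10467, 7001 and 7518, apart and in no order with the muscle share. It fell 3.65-fold (-1.87 ± 0.24, limma adjusted p = 0.00135), with an adjusted p of 0.1 when all 36 libraries entered the fit. The partner arm fell by 1.53, and no other of the 7 listed Hox cluster miRNAs passed. miR-196a-1-3p, a partner arm from the Hoxb cluster that the list leaves out, went the other way. It was at 31.8, 34.8 and 25.3 against 5.76, 4.37 and 7.89 and rose by 2.20 without overlap (limma adjusted p = 0.00137), a call that held in each alternative. Both arms of miR-708, from an intron of Tenm4, fell: miR-708-5p was at 23.5, 12.3 and 13.1 against 52.1, 57.6 and 47, and miR-708-3p at 6.96, 5.96 and 8.41 against 24.9, 23.8 and 27.7. Both were apart, with WT libraries close to each other.

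miR-365-3p was at 89.1, 75.5 and 59.8 against 201, 218 and 240 and fell 2.95-fold. miR-664-3p was at 11.9, 9.67 and 15.2 against 38.3, 57.3 and 48.8 and fell 3.71-fold. Neither overlapped. In the X-linked cluster of miR-322, miR-503 and miR-351, known from muscle differentiation, 3 of 8 tested members fell, beside 10.1% over all miRNAs tested. miR-322-3p was at 12.3, 16.7 and 14.1 against 30.5, 39.9 and 76.5, and miR-351-5p at 10.9, 11.4 and 10.6 against 25, 26.8 and 51.2. The call on miR-322-3p was lost without library 1. Both were lower in every WT-TRAMP library and ascended in WT in the order of the muscle share. Other members did not: miR-322-5p, the partner arm of miR-322-3p, descended in WT (530, 281 and 205 reads). miR-450a-5p was in no order (559, 263 and 326 reads). None of the 27 tested miRNAs listed for the imprinted Dlk1-Dio3 cluster on chromosome 12 rose or fell, with a median of -0.42. Of these, miR-335-3p lies in Mest on chromosome 6 and is not part of the cluster. miR-299a-5p, miR-127-5p and miR-673-3p come from the same cluster but were not on the list, and fell. The fall was 1.38 on the log2 scale for miR-299a-5p, and the calls on the other 2 were lost without any 1 of the WT-TRAMP libraries.

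The effect of TRAMP was then set beside the same effect in KO mice at 10 weeks and in WT mice at 30 weeks, each from other libraries. Of the 70 rises, 61 also rose in KO mice (background 22.0% of 510 miRNAs) and 47 of 69 in WT mice at 30 weeks (background 15.8% of 512). For the 51 falls, 21 of 49 also fell in KO mice (background 20.4%) and 12 of 49 at 30 weeks (background 11.5%), where 1 rose. miR-25-3p rose by 2.44 in KO mice and 2.41 at 30 weeks, and miR-15b-5p by 2.77 and 2.58. Both stood close to the rise in WT mice at 10 weeks. miR-34a-5p fell by 3.63 and 1.89 and miR-449a-5p rose by 1.83 and 2.42. miR-1a-3p, by contrast, had differences of -0.75 and -0.11 that did not pass (limma adjusted p = 0.553 and 0.901). It does not stand for the whole muscle list. Over the 15 other libraries with TRAMP and 15 without, the medians were 297 and 964 for miR-133a-3p. They were 21.2 and 80.2 for miR-133b-3p and 3158 and 5116 for miR-1a-3p, and the ranges overlapped for all of them.

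A direct test of the age difference called 54 of 512 miRNAs (10.5%), 38 with a more positive TRAMP effect at 30 weeks (7.42%) and 16 with a more negative one (3.12%). With scaling to the total the split was 30 and 26, and edgeR's quasi-likelihood test gave 49 and 4. The count fell to 18 without WT-TRAMP library 10 or 12 of the 30-week group, to 23 without library 1 or WT library 21 of the 30-week group and to 28 without library 2. Of the falls at 10 weeks, 26 of 49 were among the 38. They included muscle miRNAs, such as miR-1a-3p (5.22), and miR-126a-3p (1.53). The muscle shares of the 10-week WT libraries enter this test. The difference contains the 10-week effect by which rises and falls were picked, in the same libraries, so its side is partly fixed by that choice and nothing is read from these counts. Of the rises, 9 of 69 had a smaller effect at 30 weeks, with let-7b-5p (-1.51), miR-340-5p (-1.44), miR-429-3p (-1.37), let-7c-5p (-1.30), miR-98-5p (-1.03) and miR-7a-5p (-0.91) among them. miR-340-5p rose by 1.91 in KO mice at 10 weeks and had a difference of 0.27 at 30 weeks (limma adjusted p = 0.378).

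A direct test of the difference between KO and WT mice at 10 weeks called 0 of 510 miRNAs with limma (57 at an unadjusted p under 0.05) and 0 with edgeR (54 unadjusted). The smallest limma adjusted p was 0.310, for miR-181a-2-3p. Without WT library 28, 12 miRNAs were called, all with a more positive effect in KO mice. A miss of the threshold does not show that the effects were alike: for miR-34a-5p the difference was -1.36 ± 0.51.

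**Figure D5:**
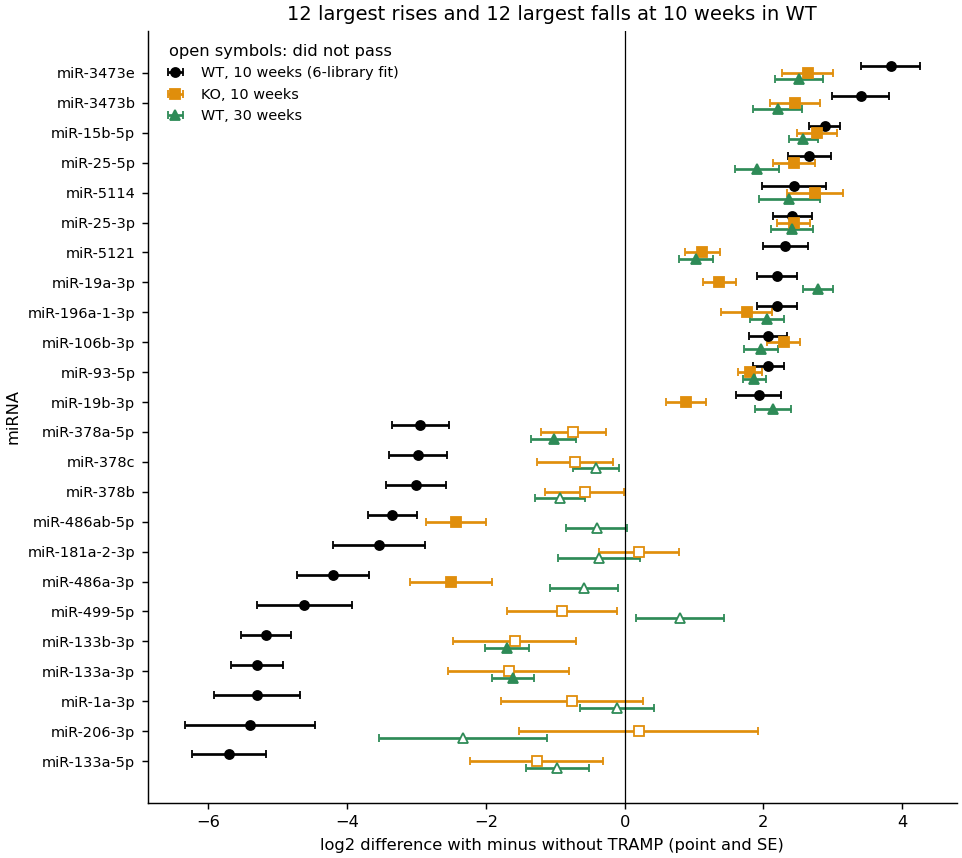
TRAMP effects on the log2 scale (horizontal, points with the SE of the limma fits) are drawn for the 12 largest rises and 12 largest falls in WT at 10 weeks, beside the effects in KO at 10 weeks (squares) and WT at 30 weeks (triangles); open symbols did not pass. The 12 rises passed in all 3 settings, whereas most falls are nearer to 0 and open in KO or at 30 weeks.

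Over the 30 libraries outside this comparison, 15 with TRAMP and 15 without, of all Elac2 lines and both ages, the levels of 23 of the 506 miRNAs (4.55%) were higher in every TRAMP library than in any other and 6 (1.19%) were lower. Of the 70 rises, 22 (31.4%) were so separated. miR-15b-5p lay between 146 and 403 (median 222) with TRAMP and between 27.9 and 76.5 (median 46.2) without it. The 22 hold all 6 arms of miR-106b-25, both miR-19 arms and miR-16-5p, miR-195a-5p and miR-497a-5p. Rises that overlapped there include miR-17-5p, miR-20a-5p, miR-15a-5p, miR-449a-5p, miR-3473b and miR-3473e. Of the 51 falls 3 were so separated (5.88%), namely miR-664-3p, miR-365-3p and miR-3102-3p, and none of them is a muscle miRNA. miR-34a-5p overlapped, at 22.0 to 130 with TRAMP and 116 to 406 without it. Of the 385 miRNAs that were not called, 1 was higher and 3 were lower in all 15 TRAMP libraries. The shallowest of the 30 libraries, A537T library 35 at 10 weeks, held 655455 reads. The counts were the same without it, a check chosen after the data were seen.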

How the data were processed

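Small RNA libraries of prostate lobes were sequenced and, according to the study's methods, aligned and counted with mirDeep2 on GRCm38 with miRBase names, miRNAs of identical sequence being summed. The deposited tables hold a normalised signal, which the authors made by dividing read counts by DESeq2 size factors, separately in each table of 6 libraries. All 32957 deposited signal values above 0 came out as whole reads (tolerance 0.001). Deposited fold changes and s-values were not used. Libraries were grouped by the table that holds them, columns shared between tables being WT. Each column was divided by its sum, rescaled by median ratios over the miRNAs present in all 6 libraries, and tested as log2(level + 1) with limma 3.58.1 (trend, R 4.3.3, Benjamini-Hochberg) where the mean level was at least 1. TRAMP effects in other groups and their differences came from fits of 12 libraries. Shares were compared by exact permutation tests. The steps were tested on simulated data. Alternatives included total and TMM scaling, other filters, edgeR 4.0.16, DESeq2 1.42.0, thinning and leaving out each library. Depth was 4544257 to 17625145 reads in the 6 libraries compared and 655455 to 21870210 over all 36, and floors cover counting error only.

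The members and lists were chosen with earlier results of these data known. The naming rule took the 12 largest rises and falls at a mean level of at least 10 without overlap, their partner arms, the 4 most abundant members of each of 22 lists, the 10 most abundant miRNAs and the leading miRNAs of each difference between effects. The other 69 called miRNAs, and members named for not passing, were chosen after their values were seen. miRNA, promoter and transcript sequences came from RefSeq and GENCODE on GRCm38.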

Additional observations from a re-analysis of the deposited data

Results flagged for a closer look

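miR-133a-5p, miR-133a-3p and miR-133b-3p stood out because the effect of TRAMP in WT mice differed between 30 and 10 weeks of age by a test of the difference itself. The 30-week effect minus the 10-week effect was 4.76 ± 0.64 for miR-133a-5p (SE, log2 scale, limma adjusted p = 0.0018), 3.71 ± 0.43 for miR-133a-3p (limma adjusted p = 0.0014) and 3.50 ± 0.45 for miR-133b-3p (limma adjusted p = 0.0018). miR-133a-3p was 5.32 lower with TRAMP at 10 weeks and 1.61 lower at 30 weeks in that fit. All 3 are skeletal muscle miRNAs, whose list made up 9.74% to 30.7% of the reads of the 10-week WT libraries, and the part of that share in the difference was not tested.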

How the results depend on the processing

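No paired analysis was possible because the columns carry no replicate numbers, and the alternative with a replicate block was therefore not run. The comparison called 121 miRNAs in the main fit, 84 to 181 with a library left out (84 without library 1 or 2, 181 without WT library 30), and 187 when all 36 libraries shared a fit, 118 of them shared with the 121. The other alternatives gave 90 to 141. The difference of the TRAMP effect between ages called 54 miRNAs, 36 of 1419 with no level filter and 18 to 55 with a library left out (18 without library 10 or 12, 23 without 1 or 21, 28 without 2). The difference between KO and WT called 0 to 12. The counts of miRNAs apart in the 30 other libraries stayed at 23 and 6 without the shallowest. Over the named miRNAs, 72 calls were lost and 14 gained under settings that kept all libraries. With a library left out, 142 were lost and 11 gained. The signs reversed, in values that were not called, for miR-30d-5p with total scaling (0.021) and thinning (0.0021), for miR-9-5p (-0.073), miR-7b-5p (-0.073), miR-30b-5p (-0.010) and miR-669c-5p (-0.091) with edgeR, and for the basal share without muscle reads (-0.037 percentage points). With a library left out the ranges that crossed 0 were -0.26 to 0.041 for miR-192-5p, -0.17 to 0.29 for miR-196b-5p, -0.43 to 0.12 for miR-205-5p, -0.062 to 0.26 for miR-29b-3p, -0.29 to 0.64 for miR-30b-5p, -0.39 to 0.36 for miR-30d-5p, -0.27 to 0.67 for miR-342-3p, -0.19 to 0.065 for miR-467e-5p, -0.31 to 0.47 for miR-669c-5p, -0.34 to 0.11 for miR-669pa-5p, -0.24 to 0.90 for miR-7b-5p, -0.15 to 0.86 for miR-9-5p and -0.034 to 0.084 points for the basal share. Depth limits the lowest miRNAs: the shallowest library, WT-TRAMP library 1, counts 3 reads as a level of 0.596.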

Other observations

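Of the miR-30 family, abundant in epithelium, 2 of 7 tested members fell and none rose, beside 10.1% falling over all miRNAs tested. Over the alternative settings 0 to 3 fell, so nothing particular to the family is read from the count. miR-30c-5p was at 4066, 4676 and 5253 in WT-TRAMP and 6795, 8248 and 12228 in WT, a fall of 0.93 on the log2 scale (limma adjusted p = 0.0401) that did not pass with no level filter or without library 1, 2, 3 or 29. miR-30a-3p fell by 1.19, at 422, 501 and 578 against 865, 1010 and 1650, whereas miR-30d-3p, a partner arm outside the list, rose by 0.92. Neither call held without library 1 or 2. In both falls the WT libraries ascended in the order of their muscle share, 28, 29 and 30.

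None of the 5 tested miR-29 miRNAs, repressors of collagens, rose or fell, and miR-29a-3p was at 7946, 9820 and 9341 against 9009, 11728 and 9014, with overlap. Neither of the 2 tested miR-192 and miR-194 miRNAs passed. Of 5 tested miRNAs from the Sfmbt2 intron 2 fell, beside 10.1% over all miRNAs tested, and 0 to 2 fell over the alternative settings. Among them was miR-467a-5p at 2.98, 4.11 and 4.92 against 11.6, 6.86 and 9.29 (-1.03, limma adjusted p = 0.0363). Its call was lost with total scaling, with no level filter and without library 1, 2, 3 or 28. Both miR-204 arms, from Trpm3, were higher in every WT-TRAMP library: miR-204-3p rose by 1.74, and miR-204-5p, at 1199, 1355 and 1133 against 319, 747 and 761, rose by 1.11 at a limma adjusted p of 0.0497, a call lost under most of the alternatives.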
